A study of Mus musculus with 4 samples.

Results

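Transcripts of Foxp3 and of the 5 Ikaros family genes, Ikzf1 to Ikzf5, were followed across CD4 T cells of the mouse colon. These 6 genes were chosen by symbol from 25724 in the table of counts, not by any measured value, and were read in 1050 of 1985 barcodes. A barcode was kept as a cell with at least 500 counts, at least 200 detected genes and under 20% of counts from mitochondrial genes. The cells came from male B6 mice aged 6 weeks, from the lamina propria of the colon, a connective tissue layer beneath the gut lining. They were released with collagenase and dispase, sorted by flow cytometry for CD45, TCRb and CD4, and profiled with inDrops, which barcodes the RNA of each cell in a droplet and primes it at the poly(A) tail. The labels give 4 samples, all in 1 group named Btheta_colon, without a control group, and all 4 carry the same library name.

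The 4 samples stand in 1 table whose barcodes name no sample, so the cells were handled as 1 sample and no test over samples was possible. Values are given with 95% intervals that cover counting error only, and no p-value is given. Kept cells held between 501 and 13023 counts, with a median of 1235.5 and quartiles of 963 and 1723. The sort was checked against 8 T cell genes: 937 cells (89.2%) had counts of at least 2 of them, and Trbc2, a constant gene of the T cell receptor beta chain, was detected in 69.9% of cells. Cd4 was detected in 39.0%.

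FOXP3 is the forkhead transcription factor that sets and maintains the regulatory T cell (Treg) program. The Ikaros family are zinc finger transcription factors that bind DNA through one cluster of zinc fingers and pair with each other through another, often acting as repressors with corepressor complexes. Ikzf1 encodes Ikaros, needed for lymphocyte development; Ikzf2 encodes Helios, known from Tregs, where it helps to keep the phenotype stable; Ikzf3 encodes Aiolos, known from B cells and some helper T cells. Ikzf4 encodes Eos, a partner of FOXP3 in gene silencing, and Ikzf5 encodes Pegasus, the most divergent member.

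Reads of related genes can be mistaken for each other, so the sequences of the members were compared. The windows below, 60 bases each, lie in the coding sequence of the GENCODE vM21 transcripts (bases 642 to 701 of the Ikzf2 transcript). The Ikzf2 window is centred on the longest run it shares with Ikzf1, of 17 bases. The other windows are the closest match in each gene. Capitals mark bases that differ from Ikzf2.
Ikzf2: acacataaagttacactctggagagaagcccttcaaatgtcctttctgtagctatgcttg
Ikzf4: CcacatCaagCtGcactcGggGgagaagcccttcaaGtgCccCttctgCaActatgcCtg
Ikzf1: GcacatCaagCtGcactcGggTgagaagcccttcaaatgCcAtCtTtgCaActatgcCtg
Ikzf3: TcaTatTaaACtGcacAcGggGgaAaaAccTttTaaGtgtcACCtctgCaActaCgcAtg
Ikzf5: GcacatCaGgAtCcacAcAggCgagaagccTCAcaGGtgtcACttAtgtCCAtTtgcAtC
Of the 60 bases, 48 were the same in Ikzf4 as in Ikzf2, 47 in Ikzf1, 39 in Ikzf3 and 38 in Ikzf5. Over the aligned coding sequences, identity between pairs of Ikaros genes ran from 57.8% (Ikzf3 with Ikzf5) to 66.1% (Ikzf1 with Ikzf2). No stretch of 50 bases was shared between transcripts of any 2 of the 6 genes, and the longest shared run was 26 bases, between Ikzf1 and Ikzf3. The windows lie 1523 to 3889 bases from the 3′ end of the transcripts compared, where priming at the poly(A) tail starts.

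In the mm10 build (GRCm38), GENCODE vM21 places Foxp3 on the plus strand of chrX:7573644-7595245 and Ikzf2 on the minus strand of chr1:69531214-69687245. Ikzf1 (chr11:11685003-11772926, plus strand) and Ikzf3 (chr11:98464902-98546031, minus strand) share a chromosome. Ikzf4 lies at chr10:128630843-128645991 and Ikzf5 at chr7:131388652-131410521, both on the minus strand. Foxp3 overlaps Ppp1r3f and Ccdc22 on the opposite strand, with 21 and 25 counts in the kept cells, and Ikzf5 overlaps Pstk, with 35 counts against 38 for Ikzf5 itself. On the same strand, Fgfr2 (4 counts) spans the whole of Ikzf5, and Flicr, which is not among the genes used here, overlaps 7384 bases of Foxp3. Whether the counting used strand is not given in the sources used here, and strand could not separate the same-strand pairs, so reads of these pairs may not be told apart.

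Because the cells were gated by Gata3 below, the Foxp3 promoter was read on both strands for the letters AGATAA, the kind of motif that GATA factors bind. RefSeq gives 2 Foxp3 starts with promoter windows, and the 250 bases before the downstream start (GRCm38.p6, chrX:7580233-7580482, plus strand) hold it once, in capitals.
Foxp3: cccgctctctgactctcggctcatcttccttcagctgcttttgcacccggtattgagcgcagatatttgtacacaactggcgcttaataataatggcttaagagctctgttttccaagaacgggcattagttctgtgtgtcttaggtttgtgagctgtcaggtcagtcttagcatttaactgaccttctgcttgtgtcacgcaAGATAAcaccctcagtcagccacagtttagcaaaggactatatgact
The 250 bases before the other start (chrX:7579426-7579675) hold none. AGATAA occurs in 9.99% of 32851 RefSeq mouse promoter windows of this length, TGGGAA (an Ikaros-type core) in 21.6% and GTAAACA (a forkhead-type motif) in 3.17%. Neither TGGGAA nor GTAAACA was found in the Foxp3 windows or in those of Ikzf1 and Ikzf5. These matches describe letters only.

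Foxp3 was detected in 332 of 1050 cells (31.6%, exact interval 28.8 to 34.5), with 692 counts in all and at most 9 in a cell. Among those cells, 153 held a single count, 83 held 2 and 96 held 3 or more. Detection depended on depth: it was 27.5% in cells of under 1000 counts, 30.7% from 1000 to under 2000 and 41.6% at 2000 or more. Each cell was therefore also thinned to 500 counts drawn at random from its own, which puts all cells at the same depth. At that depth Foxp3 was found in 183 cells (17.4%, 15.2 to 19.9). A cell without a Foxp3 count may thus still carry the transcript.

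Ikzf2 was detected in 358 cells (34.1%, and 19.8% at 500 counts), with 833 counts and up to 19 in a cell. Ikzf1 was detected in 184 cells (17.5%, and 8.38% at 500 counts), 119 of which held a single count. Ikzf4 was found in 55 cells (5.24%, and 2.76% at 500 counts), and 1 cell held 9 of its 88 counts. Ikzf5 was found in 34 cells with 38 counts, and Ikzf3 in 11 cells with 15 counts. Statements on these last genes are limited by their small counts. Levels of different genes are not ranked here, since capture differs between transcripts.

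Cells with non-T marker genes, which should mostly lack Foxp3, were read for comparison. The marker list also held genes of B, plasma and myeloid cells and of CD8 and gamma delta T cells. Such cells need not lack Ikaros family transcripts, so they give no background for those genes. Of 34 cells with at least 2 non-T marker genes, 18 also had at least 2 T cell genes and may be mixtures or such T cells. In the other 16, a restriction made after the values were seen, Foxp3 had 0 counts (median depth 1998.5). The exact interval for 0 in 16 cells allows a share of cells with a count of up to 20.6%, which is no limit on cells that express the gene. Ikzf1 had 1 count in those 16 cells (17.4 CPM, 0.440 to 96.9) and Ikzf2 had 2 (34.8 CPM, 4.21 to 126). CPM is the usual scale that sets a gene's counts against all counts of the same cells. Over all kept cells Ikzf1 stood at 181 CPM and Ikzf2 at 538 CPM. In all 34 non-T cells, at a median of 2081 counts, Foxp3 was found in 5 (14.7%) at 500 counts. Within T cells, the share with Foxp3 at 500 counts was 1.37% in 73 cells with Th1 or cytotoxic genes (0.0347 to 7.40), 4.55% in 44 cycling cells (0.555 to 15.5) and 8.55% in 117 naive-type cells (4.17 to 15.2). Ikzf2 was found in 5.48%, 9.09% and 7.69% of these cells, and Ikzf1 in 8.22%, 6.82% and 9.40%. In the Th1 or cytotoxic and naive-type sets the upper limits for Foxp3 and Ikzf2 (at most 15.2%) lay at or under the lower limits over all cells (15.2% and 17.4%). The cycling set is too small to say, since its Ikzf2 interval (2.53 to 21.7) held the share over all cells. The Ikzf1 shares lay within the interval over all cells (6.78 to 10.2). The sets are named from marker genes alone.

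Cells with Foxp3 carried more Ikzf2 and less Ikzf1 than cells without, and the level of Ikzf4 was higher in them. The comparison set 332 Foxp3-positive cells (at least 1 count at full depth, median depth 1304.5) against 718 Foxp3-negative cells (median 1215). Of the 5 Ikaros genes, 3 had the 50 counts needed for a ratio to be read. Ikzf2 and Ikzf4 were at least 1.5-fold higher, a mark that 10.3% of 4789 genes reached, and Ikzf1 was at least 1.5-fold lower, as were 11%. The median log2 ratio over all genes was 0.01, which the scaling to CPM largely fixes.

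Ikzf2, the Helios gene, stood at 880.2 CPM in Foxp3-positive cells (interval 801 to 965) and 367 CPM in Foxp3-negative cells (331 to 406), a log2 ratio of 1.26 (1.06 to 1.46). At 500 counts per cell it was found in 31.0% of Foxp3-positive cells and 14.6% of Foxp3-negative cells, 16.4 percentage points higher (Newcombe interval 10.9 to 22.1). The 2 shares did not overlap in their intervals. Even so, 192 of the 358 cells with Ikzf2 had no Foxp3 count.

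Ikzf4, the Eos gene, stood at 101 CPM in Foxp3-positive cells (52 counts) and 34.8 CPM in Foxp3-negative cells (36 counts), a log2 ratio of 1.54 (0.90 to 2.19). It was found in 4.52% and 1.95% of these cells at 500 counts, 2.57 points higher (0.38 to 5.48). Without the cell that held 9 counts, the log2 ratio was 1.27. The difference in detection depended on how Foxp3 was read: it was 0.843 points with a gate of at least 2 Foxp3 counts, and 0.626 points (-1.57 to 4.42) with Foxp3 read from the thinned counts. In cells of 2000 or more counts the drawn shares turned, at 2.70% of Foxp3-positive and 3.85% of Foxp3-negative cells. These are 2 and 4 cells, with overlapping intervals (0.33 to 9.42 and 1.06 to 9.56), so no order is read from them. Without thinning, the shares in this band were 8.11% and 5.77%, and the levels 49.2 and 25.5 CPM.

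Ikzf1, the Ikaros gene, went the other way. It stood at 128 CPM in Foxp3-positive cells (99.2 to 163) and 208 CPM in Foxp3-negative cells (181 to 238), a log2 ratio of -0.70 (-1.12 to -0.29). At 500 counts it was found in 4.52% of Foxp3-positive cells and 10.2% of Foxp3-negative cells, a difference of -5.65 points (-8.65 to -2.21). Ikzf3 had 7 counts in Foxp3-positive cells and 8 in Foxp3-negative cells, and Ikzf5 had 7 and 31. The intervals of both log2 ratios held 0 (-0.88 to 2.47 for Ikzf3, -2.57 to 0.07 for Ikzf5).

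Non-T transcripts differed between the same cells: the 29 non-T marker genes, 3 of them at 0, summed to 233 CPM in Foxp3-positive cells and 3214 CPM in Foxp3-negative cells, where 1 cell alone held 934 such counts. Without the 34 cells that had at least 2 of these genes, the differences in detection at 500 counts were 16.3 points for Ikzf2, 2.61 for Ikzf4 and -6.08 for Ikzf1. Naive-type genes summed to 525 CPM in Foxp3-positive cells and 969.7 CPM in Foxp3-negative cells, and Th1 or cytotoxic genes to 243 and 499 CPM. The part of these T cell subsets in the differences was not tested.

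**Figure D1:**
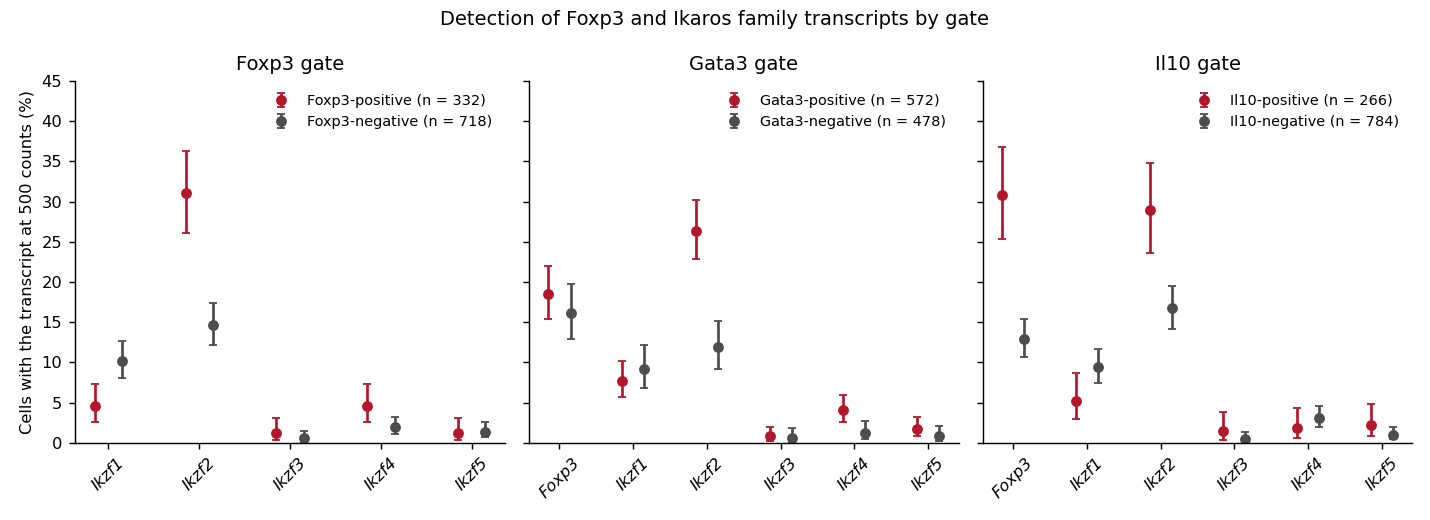
Share of cells (%) in which each transcript was found after thinning to 500 counts, for gate-positive cells (red, left of each pair) and gate-negative cells (grey), with exact 95% binomial intervals. Ikzf2 was found in 31.0% of Foxp3-positive and 14.6% of Foxp3-negative cells, 26.4% of Gata3-positive and 11.9% of Gata3-negative cells, and 28.9% of Il10-positive and 16.7% of Il10-negative cells. Averaged over all draws, the Ikzf2 shares by Gata3 were 25.4% and 13.6%.

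Ikzf2 was higher in each class of cells with Foxp3 counts than in cells without. It was found at 500 counts in 14.6% of cells with 0 Foxp3 counts, 29.4% with 1, 30.1% with 2 and 34.4% with 3 or more, at levels of 367, 792, 993 and 918 CPM. The step lay between 0 and 1 count, and the intervals of the 3 positive classes overlapped. Ikzf1 stood at 208, 143, 110 and 122 CPM over the same classes. Ikzf4 stood at 34.8, 164, 62.6 and 38.5 CPM, so its level was highest in cells with a single Foxp3 count, which held 38 of its 88 counts. The cell with 9 Ikzf4 counts was among these, so this level rests in part on 1 cell. The Ikzf4 intervals overlapped between cells with 1 Foxp3 count (116 to 226) and 2 (27.0 to 123). With 3 or more Foxp3 counts the interval lay lower (14.1 to 83.8). Cells with 3 or more Foxp3 counts were deeper, with a median of 1456.5 counts.

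Within bands of depth the Ikzf2 difference was present each time. At 500 counts Ikzf2 was found in 36.9% of Foxp3-positive and 18.6% of Foxp3-negative cells among those with under 1000 counts. The shares were 31.0% and 13.2% from 1000 to under 2000 counts, and 24.3% and 11.5% at 2000 or more. The Ikzf1 level was lower with Foxp3 in each band, but its intervals lay apart only from 1000 to under 2000 counts. There it stood at 108 CPM in Foxp3-positive cells (70.3 to 158) and 229 CPM in Foxp3-negative cells (190.3 to 273). The intervals overlapped in cells of under 1000 counts, at 100.4 CPM (40.4 to 207) and 201 CPM (141 to 279), from only 7 and 36 counts. They also overlapped in those of 2000 or more, at 162 CPM (112 to 228) and 175 CPM (132 to 228). Whether the difference changes with depth was not tested.

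**Figure D2:**
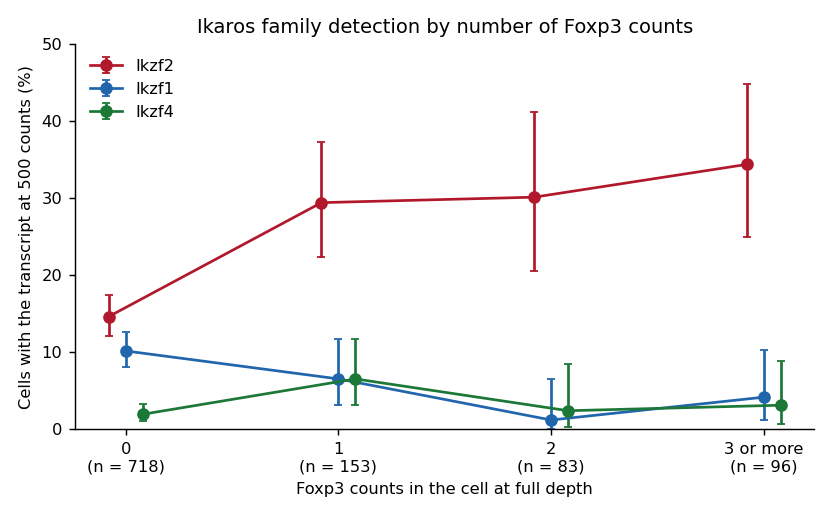
Share of cells (%) with Ikzf2 (red), Ikzf1 (blue) and Ikzf4 (green) after thinning to 500 counts, against the number of Foxp3 counts in the cell at full depth, with exact 95% binomial intervals. Ikzf2 was found in 29.4% of the 153 cells with 1 Foxp3 count, against 14.6% of the 718 cells without, and the intervals overlap among the classes with Foxp3.

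Cells with Gata3, the gene of a factor of Th2 cells and of many tissue Tregs, carried more Ikzf2 and Ikzf4. Ikzf2 stood at 701 CPM in 572 Gata3-positive cells (median depth 1336) and 322 CPM in 478 Gata3-negative cells (median 1161), a log2 ratio of 1.12 (0.90 to 1.35). It was found in 26.4% and 11.9% of these cells at 500 counts, 14.5 points higher (9.76 to 19.1). Averaged over all possible draws of 500 counts the shares were 25.4% and 13.6%, a difference of 11.9 points, so the drawn value lies on the high side. Ikzf4 stood at 82.8 CPM in Gata3-positive cells and 22.5 CPM in Gata3-negative cells, from 73 and 15 counts, a log2 ratio of 1.88 (1.07 to 2.79). Without the cell that held 9 counts, the Ikzf4 ratio was 1.69. Of the 4 members with 50 counts, these 2 were at least 1.5-fold higher, as were 10.1% of 4789 genes, and none was lower by that much (8.23% of genes).

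Foxp3 itself differed little by Gata3, at 488 CPM in Gata3-positive cells and 393 CPM in Gata3-negative cells (log2 ratio 0.31, 0.09 to 0.54). Its share at 500 counts was 18.5% and 16.1%, a difference of 2.42 points whose interval held 0 (-2.22 to 6.97). Ikzf1 stood at 171 and 195 CPM, and the interval of its log2 ratio also held 0 (-0.53 to 0.16). Ikzf3 had 10 and 5 counts, and Ikzf5 had 22 and 16. Other markers moved with this gate: naive-type genes summed to 668 CPM in Gata3-positive cells and 1025 CPM in Gata3-negative cells, and non-T genes to 293 and 4775 CPM. Without the 34 non-T cells the differences in detection were 14.5 points for Ikzf2 and 2.79 for Ikzf4.

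Cells with Il10, which encodes a suppressive cytokine made by many gut Tregs, carried more Foxp3 and Ikzf2 and less Ikzf1. Foxp3 stood at 778 CPM in 266 Il10-positive cells (median depth 1314) and 330.1 CPM in 784 Il10-negative cells (median 1212), a log2 ratio of 1.24 (1.02 to 1.46). It was found in 30.8% and 12.9% of them at 500 counts, 17.9 points higher (12.1 to 24.1). Ikzf2 stood at 800.0 CPM in Il10-positive cells and 445 CPM in Il10-negative cells (log2 ratio 0.85, 0.64 to 1.05), and Ikzf1 at 131 and 199 CPM (log2 ratio -0.60, -1.06 to -0.16). Against 11.3% of genes at least 1.5-fold higher and 13.7% lower, 2 of the 4 members with 50 counts were higher and 1 lower.

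Ikzf4 and Ikzf5 were not separated by Il10. Ikzf4 stood at 52.0 CPM in Il10-positive cells and 58.5 CPM in Il10-negative cells, and the interval of its log2 ratio held 0 (-0.95 to 0.56). Ikzf3, the Aiolos gene, had 9 counts in Il10-positive cells and 6 in Il10-negative cells, a log2 ratio of 2.09 (0.44 to 3.86) that rests on 11 cells with the transcript. Ikzf5 stood at 24.8 and 24.4 CPM (log2 ratio 0.02, -1.19 to 1.10). In Il10-positive and Il10-negative cells, naive-type genes summed to 334 and 994 CPM, cycling genes to 206 and 460.1 CPM, and non-T genes to 151 and 2954 CPM. Without the 34 non-T cells the differences in detection were 17.5 points for Foxp3, 11 for Ikzf2 and -4.72 for Ikzf1. The part of naive-type and cycling cells was not tested.

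The gates themselves were linked, since Foxp3-positive cells also held more Il10 (942 CPM, against 371 CPM in Foxp3-negative cells) and more Gata3 (1708 CPM, against 1374 CPM). The Gata3 and Il10 gates were therefore read within Foxp3-positive and within Foxp3-negative cells. Ikzf2 was higher with Gata3 on both sides. Among Foxp3-positive cells it stood at 1015 CPM in 201 Gata3-positive cells and 638 CPM in 131 Gata3-negative cells (log2 ratio 0.67, 0.36 to 0.99). Among Foxp3-negative cells it stood at 512 CPM in 371 Gata3-positive cells and 203 CPM in 347 Gata3-negative cells (log2 ratio 1.34, 1.0 to 1.68). The shares at 500 counts were 39.3% and 18.3% within Foxp3-positive cells and 19.4% and 9.51% within Foxp3-negative cells. Averaged over all draws they were 36.2% and 22.3%, and 19.6% and 10.3%, so the drawn difference within Foxp3-positive cells lies on the high side. With gates also read from the thinned counts, the differences were 11.4 and 11.7 points. Whether the 2 sides differ was not tested.

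The level of Ikzf4 was also higher with Gata3 on both sides, from few counts. Among Foxp3-positive cells it had 133 CPM in Gata3-positive cells and 43.6 CPM in Gata3-negative cells (44 and 8 counts, log2 ratio 1.61, 0.50 to 2.91). Without the cell that held 9 counts, this log2 ratio was 1.28. Among Foxp3-negative cells Ikzf4 had 52.7 and 14.5 CPM (29 and 7 counts, log2 ratio 1.86, 0.64 to 3.30), which is under the 50 counts set for reading a ratio. Its share at 500 counts there was 1.54 points higher with an interval that held 0 (-0.61 to 3.85). The share was 4.94 points higher in Foxp3-positive cells with Gata3 (0.25 to 9.36), but the difference was -0.826 points when Foxp3 and Gata3 were also read from the thinned counts. Within Foxp3-positive cells, 11.4% of 1790 genes were at least 1.5-fold higher with Gata3 and 9.16% lower. Within Foxp3-negative cells these shares were 10.9% and 8.24% of 3469 genes.

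Inside the Foxp3-positive cells, Ikzf2 was not separated by Il10 beyond counting error. It stood at 951 CPM in 146 Il10-positive cells and 823 CPM in 186 Il10-negative cells, and the interval of the log2 ratio held 0 (0.21, -0.06 to 0.48). In Foxp3-negative cells Ikzf2 stood at 599 CPM in 120 Il10-positive cells and 321 CPM in 598 Il10-negative cells (log2 ratio 0.90, 0.56 to 1.23), found at 500 counts in 30 and 75 of them, 12.5 points higher (4.98 to 21.2). Whether the 2 effects differ was not tested.

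Within Foxp3-positive cells the level of Ikzf4 was lower with Il10. It had 39.1 CPM in Il10-positive cells and 151 CPM in Il10-negative cells, from 9 and 43 counts, a log2 ratio of -1.95 (-3.17 to -0.89). Without the Il10-negative cell that alone held 9 counts, the ratio was -1.62. The share at 500 counts differed by -4.40 points within Foxp3-positive cells, with an interval that held 0 (-9.08 to 0.29). Within Foxp3-negative cells Ikzf4 had 12 counts with Il10 and 24 without (69.2 and 27.9 CPM), too few for a ratio by the minimum of 50. Its share there was 1.67% in Il10-positive and 2.01% in Il10-negative cells as drawn, and 3.21% and 1.32% over all draws, so no order is read from 1 draw. In these comparisons 9.5% of 1790 genes were at least 1.5-fold higher and 9.05% lower within Foxp3-positive cells, and 15% and 18.2% of 3469 genes within Foxp3-negative cells. Ikzf1 stood at 113 CPM in Il10-positive and 141 CPM in Il10-negative cells with Foxp3, and at 156 and 218 CPM in those without, with 0 inside both intervals of the log2 ratio.

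**Figure D3:**
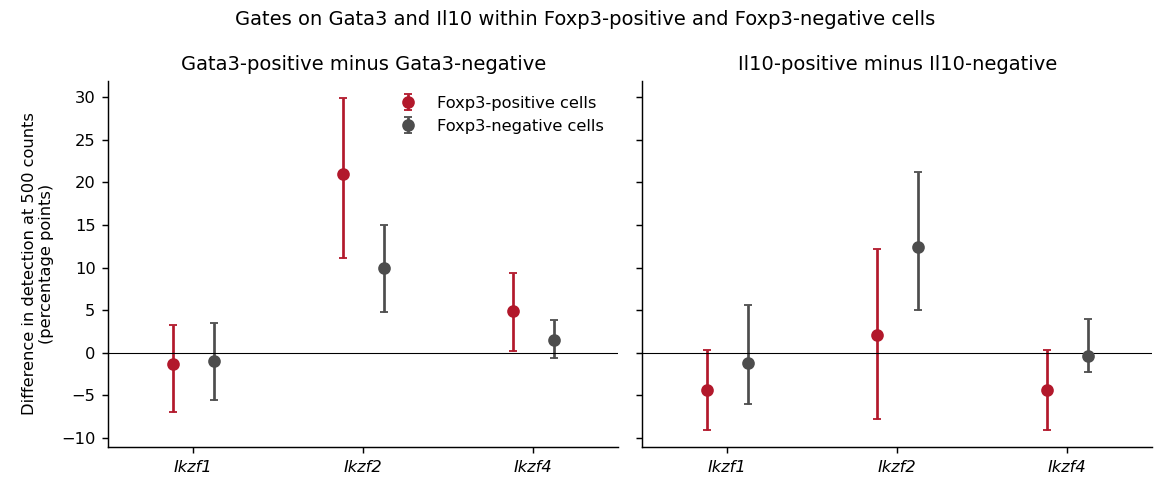
Difference in the share of cells with each transcript at 500 counts (percentage points, with Newcombe 95% intervals) between gate-positive and gate-negative cells, inside Foxp3-positive cells (red, left) and Foxp3-negative cells (grey). For Ikzf2 the Gata3 differences are 21.0 and 9.90 points, and the Il10 differences 2.08 and 12.5 points. Averaged over all draws these are 13.9 and 9.34 points for Gata3, and 0.473 and 10.7 points for Il10.

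Splitting the cells by all 3 gate genes gave 8 combinations with between 50 and 301 cells each. Ikzf2 was highest in cells with Foxp3, Gata3 and Il10 (1076 CPM, 921 to 1250), followed by cells with Foxp3 and Gata3 (958 CPM). Cells with Gata3 and Il10 but no Foxp3 stood at 686 CPM, those with Foxp3 and Il10 at 673 CPM, and those with Foxp3 alone at 615 CPM. Cells with Gata3 alone had 468 CPM and those with Il10 alone 441 CPM. The 297 cells with none of the 3 had 168 CPM (131 to 212), and this was the only step between neighbours in the order whose intervals did not overlap.

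Ikzf4 had 36 of its 88 counts in the 107 cells with Foxp3 and Gata3 but no Il10, which stood at 209 CPM (146 to 289). The cell that held 9 Ikzf4 counts was among these 107, so the level rests in part on 1 cell. Next were cells with Gata3 and Il10 but no Foxp3, at 89.1 CPM (42.7 to 164), and cells with Foxp3 alone, at 62.4 CPM (25.1 to 129). The lowest level, 11.8 CPM (3.84 to 27.6), was again in cells with none of the 3, and each interval overlapped that of its neighbour in the order. Ikzf1 ran from 230 CPM (186 to 280.1) in cells with none of the 3 to 84.2 CPM (30.9 to 183) in cells with Foxp3 and Il10 but no Gata3, with all neighbours overlapping. Foxp3 itself ran from 1296 to 1515 CPM over its 4 positive combinations, whose neighbours also overlapped.

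**Figure D4:**
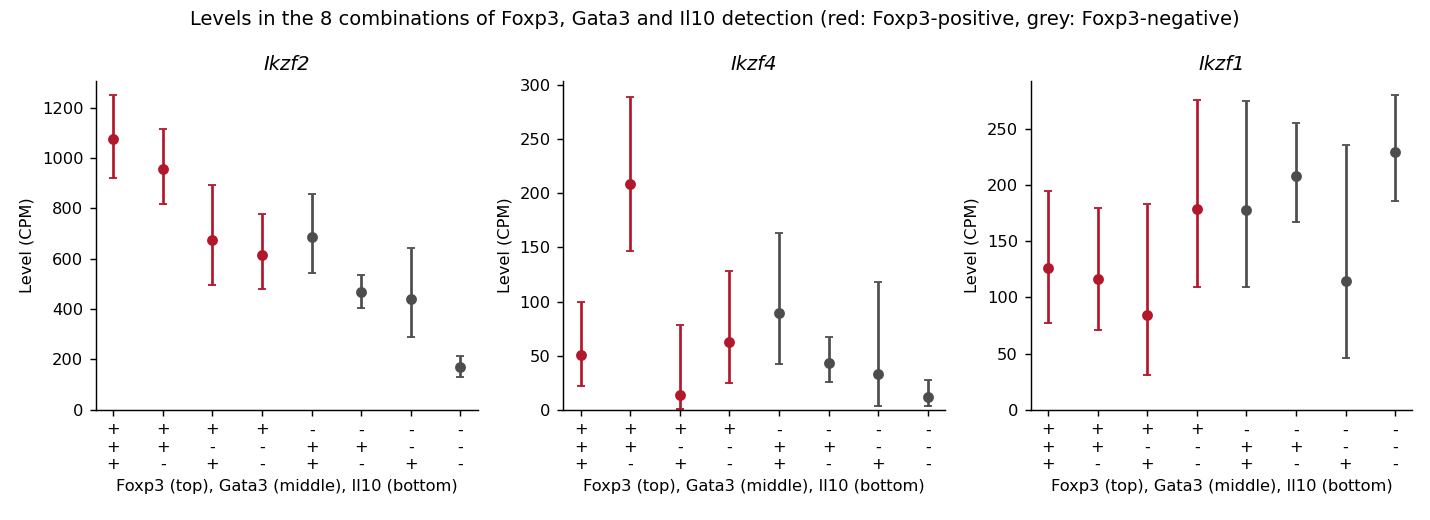
Levels of Ikzf2, Ikzf4 and Ikzf1 (CPM, with exact Poisson 95% intervals) in the 8 combinations of cells with (+) or without (-) a count of Foxp3, Gata3 and Il10, Foxp3-positive combinations in red on the left and Foxp3-negative ones in grey on the right. Ikzf2 is lowest, at 168 CPM, where all 3 gate genes are absent, and Ikzf4 reaches 209 CPM with Foxp3 and Gata3 but no Il10. The cell with 9 Ikzf4 counts lies in that last class.

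Joint detection was read with both genes taken from the same 500 counts. Of 183 cells with Foxp3, 61 also had Ikzf2 (33.3%, 26.6 to 40.7), against 17.0% of the 867 cells without Foxp3. Seen from Ikzf2, 29.3% of its 208 cells had Foxp3, against 14.5% of the 842 cells without Ikzf2. At full depth 166 cells held both, which was 50% of the cells with Foxp3 and 46.4% of those with Ikzf2. Each was found more often in cells with the other than in cells without it, and each was also often found without a count of the other. Since detection rose with depth, a transcript without a count may still have been present in these cells.

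The cells with Foxp3, Ikzf2 or both differed in their other transcripts. Gata3 stood at 2158 CPM in the 166 cells with both, 1231 CPM in the 166 with Foxp3 alone, 1863 CPM in the 192 with Ikzf2 alone and 1181 CPM in the 526 with neither. Il10 stood at 941, 944, 702 and 241 CPM in the same order of classes. Gata3 was thus high where Ikzf2 was present, and Il10 where either was. Ikzf1 stood at 79.4 CPM in cells with both (49.1 to 121), 180 CPM with Foxp3 alone, 137 CPM with Ikzf2 alone and 236 CPM with neither (202 to 273).

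Ikzf4 was found with Ikzf2 and Gata3 more often than without. At 500 counts, 14 of the 29 cells with Ikzf4 had Ikzf2 (48.3%, 29.4 to 67.5), against 19.0% of the 1021 cells without Ikzf4. Averaged over all possible draws of 500 counts these shares were 32.0% and 19.7%, so the drawn value lies on the high side. Gata3 was found in 62.1% of cells with Ikzf4 and 36.2% of those without. Foxp3 was found in 20.7% of cells with Ikzf4 and 17.3% of those without, a difference of 3.35 points whose interval held 0 (-7.76 to 21.2). Over all draws these shares were 29.9% and 17.5%, so the drawn value for cells with Ikzf4 lies on the low side. At full depth, where depth is not matched, 30 cells held both, 54.5% of those with Ikzf4. Il10 was found in 6.90% of cells with Ikzf4 (2 cells) and 16.4% of those without, also with 0 inside the interval of the difference (-15.0 to 5.76). Over all draws the Il10 shares were 15.8% and 16.2%, so no order is read from this draw. Foxp3, Ikzf2 and Ikzf4 were found together in 4 cells at 500 counts and 15 at full depth.

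Ikzf1 was found less often beside Foxp3. It was present at 500 counts in 6 of 183 cells with Foxp3 (3.28%, 1.21 to 7.00) and 9.46% of those without, a difference of -6.18 points (-8.95 to -2.09). Over all draws the shares were 5.35% and 8.65%. With Ikzf2 the Ikzf1 share was 5.29%, against 9.14% without, and the interval of that difference held 0 (-7.00 to 0.45). Most cells gave no Ikaros transcript at this depth: 734 cells (69.9%) had none of the 5, 286 had 1, 29 had 2 and 1 had 3. At full depth these numbers were 508, 449, 86 and 7.

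**Figure D5:**
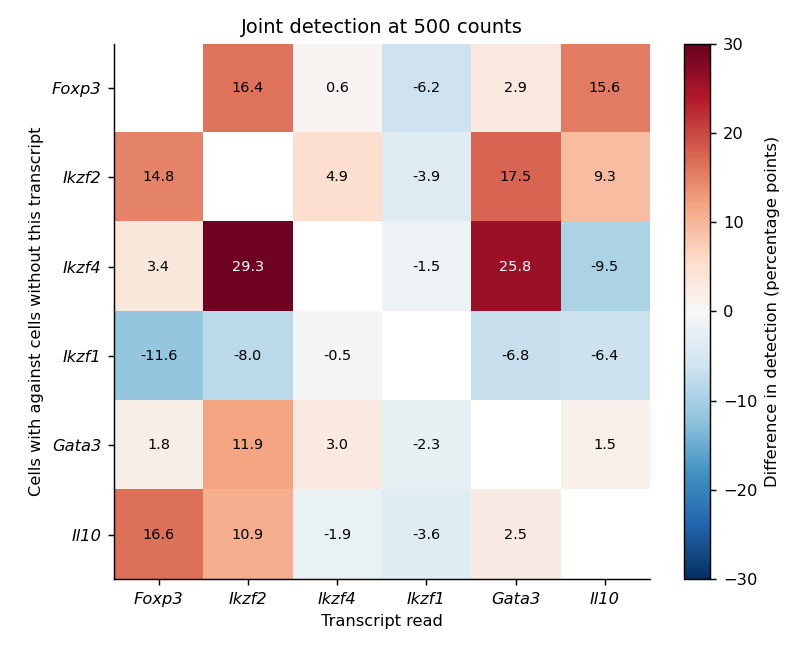
Difference in detection at 500 counts (percentage points) of the transcript in each column between cells with and cells without the transcript in each row, both read from the same thinned counts. Red cells are positive, such as the 16.4 points of Ikzf2 by Foxp3, and blue cells negative, such as the -6.2 points of Ikzf1 by Foxp3.

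The genes found in the same cells as each member were ranked by the phi coefficient of joint detection over 1050 cells, averaged over 20 draws of 500 counts, among 1250 genes. Cells and counts are shared between all these pairs, and the values are small. Foxp3 was most like Icos, a costimulatory receptor gene (0.17), then Il10 and Ctla4, an inhibitory receptor gene (0.16 each), and Gzmb, the granzyme B gene, and Ikzf2 (0.14 each). Ikzf2 was most like Tnfrsf9, which encodes the costimulatory receptor 4-1BB (0.20), Zfp36l1, an mRNA decay factor (0.19), Klrg1, an inhibitory receptor gene (0.18), Tnfrsf4, which encodes OX40, and Ctla4 (0.16 each), with Foxp3 next. Zfp36l1 (0.12) and Tnfrsf9 (0.10) also came first for Ikzf4, followed by Nfkbia, the gene of an NF-kB inhibitor, Fam46a and Camk2n1 (0.08 each). Values that round to 0.08 or less in size are given for completeness and not read, a cut that was not planned. It covers these last 3 genes and the highest values of Ikzf1 (0.07, Ms4a6b) and Ikzf3 (0.08, Hspd1). It also covers Ikzf1 with Foxp3 (-0.04) and with Ikzf2 (-0.07).

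Partner genes of the family were read by the Foxp3 gate. Of 20 measured subunits of NuRD and other corepressor complexes, known to bind Ikaros family proteins, 1 was at least 1.5-fold higher and 1 lower, and the median log2 ratio was close to 0, beside 10.3% and 11% over all genes. Mbd2, which links NuRD to methylated DNA, stood at 321 CPM in Foxp3-positive cells and 235 CPM in Foxp3-negative cells (log2 ratio 0.45, 0.15 to 0.74). Hdac1, a histone deacetylase gene, stood at 111 and 76.4 CPM (0.54, 0.02 to 1.05), and Chd4, the NuRD ATPase gene, at 276 and 232 CPM (0.25, -0.06 to 0.56). The 2 genes past 1.5-fold were the chromatin remodelling subunits Smarcd1, at 52.5 and 30.9 CPM (0.76, -0.03 to 1.55), and Smarcc1, at 38.9 and 59.9 CPM (-0.63, -1.43 to 0.12). Smarcc1 is named after its value was seen.

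Of 22 measured factors known to bind or act with FOXP3, 2 were at least 1.5-fold higher with Foxp3 and 3 lower (median log2 ratio -0.10), shares of the list near the 10.3% and 11% of all genes, so nothing is read about the list. Maf, a factor of Il10-producing T cells, stood at 1591 CPM in Foxp3-positive cells and 1030 CPM in Foxp3-negative cells (log2 ratio 0.63, 0.49 to 0.76). Satb1, a chromatin organizer of naive T cells, stood at 35.0 and 125 CPM (-1.83, -2.63 to -1.12), and Tcf7, which encodes TCF-1, at 21.4 and 163 CPM (-2.93, -3.96 to -2.06). Rel, an NF-kB subunit gene (1.17, 0.54 to 1.81), and Ep300, an acetyltransferase gene (-0.60, -1.28 to 0.05), were the others past 1.5-fold and are named after their values were seen. The IL-2 gene, which FOXP3 is known to repress, stood at 33.0 CPM in Foxp3-positive cells and 64.8 CPM in Foxp3-negative cells (log2 ratio -0.97, -1.83 to -0.19). Its receptor genes Il2rg (0.45, 0.26 to 0.63), Il2rb (0.38, 0.02 to 0.74) and Il2ra (0.95, 0.62 to 1.28) had positive log2 ratios. Of 25 Treg genes listed with earlier results of these data known, 17 had 50 counts, and 15 of those were at least 1.5-fold higher and none lower (median log2 ratio 0.93), led by Ctla4, Icos, Il10 and Gzmb. Because the list was made with that knowledge, the count is not read as support for the gate.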

How the data were processed

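The authors used TopHat2, SAMtools and mm10, per the submitters' processing notes, without versions. How counts were made (the tool, molecular identifiers, annotation, strand) is not given in the sources used here. Each deposited value is a whole-number count for a barcode and a gene. Gene symbols were matched to GENCODE vM21, and 25033 of 25724 (97.3%) matched.

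From these counts, cells were filtered as the report states and gates were read at full depth. Readouts were thinned to 500 counts per cell (seed 1), and levels were summed as CPM. Intervals are exact binomial (Clopper-Pearson) for shares, Newcombe for differences, exact Poisson for CPM and exact conditional for log2 ratios. Numpy 2.4.6, scipy 1.17.1, pandas 2.3.3 and scanpy 1.11.5 (Scrublet) were used. Doublets were kept in, and leaving out the 9 called (0.857%) was an alternative. Scripts were tested on simulated data. Ratios were read for genes with at least 50 counts (the 2 sides summed) at 1.5-fold. Partner genes were named by the log2 ratio over its interval width, up to 4 per list, and likeness genes as the 5 highest phi values among genes found in at least 5% of cells. Members and lists were chosen with earlier results of these data known, and the stricter non-T set and leaving out the cell of highest count after seeing the data. Alternatives were the depth of thinning, the draw, cell filters, doublets, non-T cells, the gate threshold and the count minimum.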

Additional observations from a re-analysis of the deposited data

Results flagged for a closer look

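The 914 barcodes with under 500 counts, which no comparison used, also held transcripts of the members, above what a count of 0 allows. Foxp3 stood at 224 CPM in them (26 counts) and at 447 CPM in the kept cells. Ikzf2 stood at 250.3 CPM (29 counts), Ikzf1 at 69.1 CPM (8 counts), Ikzf4 at 43.2 CPM (5 counts) and Ikzf5 at 34.5 CPM (4 counts). The first 3 of these levels lay below those of the kept cells, and the intervals for Ikzf4 (14.0 to 101) and Ikzf5 (9.41 to 88.4) held theirs. Whether these barcodes are shallow cells or free RNA was not tested.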

How the results depend on the processing

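No paired analysis was possible because the barcodes carry no sample, and leaving out a replicate could not be run for the same reason. Of 422 alternative values, 386 lay inside the 95% interval of the reported value (for list counts, within 1.5 times it) and 36 outside. The sign changed in 19, of which 18 belong to values whose interval held 0, such as Ikzf2 by Il10 within Foxp3-positive cells (-4.43 points with gates read from thinned counts). Shares rise with depth by construction. Thinned to 1000 counts and without thinning, detection was 25.5% and 31.6% for Foxp3, 13.8% and 17.5% for Ikzf1, 28.3% and 34.1% for Ikzf2, 4.3% and 5.24% for Ikzf4, and 2.82% and 3.24% for Ikzf5. In the Foxp3 gate the differences, in points, became 23.3 for Ikzf2 without thinning, 5.65 and 5.55 for Ikzf4 and -1.81 and -1.65 for Ikzf5 (at 1000 counts and without thinning). In the Gata3 gate they became 7.73 for Foxp3 without thinning, -5.59 for Ikzf1 at 1000 counts, and 20.2 and 21.9 for Ikzf2. In the Il10 gate they became 26.3 and 31.2 for Foxp3, and without thinning -7.36 for Ikzf1, 20.3 for Ikzf2 and 1.54 for Ikzf4, against -1.18 as drawn at 500 counts. Within Foxp3-negative cells the Ikzf2 difference by Gata3 became 16.3 and 17.7, and without thinning the differences by Il10 became 22.9 for Ikzf2 and 4.82 for Ikzf4. With at least 1000 counts per cell, that of Ikzf5 became -1.49. The reversed value was that of Ikzf4 by Gata3 within Foxp3-positive cells, -0.826 points with gates read from thinned counts; the cause was not tested. Among partner genes, a minimum of 100 counts gave 0 corepressor subunits higher and 0 lower, 1 factor acting with Foxp3 higher and 0 IL-2 genes lower, a minimum of 20 gave 6 such factors lower, and counts capped at 1 gave 1 such factor higher. Over 20 draws the Foxp3-gate difference ran from 13.9 to 18.5 points for Ikzf2, 1.5 to 5.07 for Ikzf4 and -7.34 to -2.43 for Ikzf1. In the Gata3 gate that of Ikzf2 ran from 8.22 to 14.4 points, below the 14.5 points of the draw reported above. The small counts of Ikzf3, Ikzf4 and Ikzf5 limit what can be read from them.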
